A study of Mus musculus with 52 samples.

Results

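CTCF is the zinc finger protein that marks insulators and the borders of chromatin loops, and 4535 of its autosomal binding sites were listed in both SmcHD1-deficient genotypes of mouse fibroblasts and not in wild type. A site was taken from the CTCF peak list of germline SmcHD1 null cells if it lay on chromosomes 1 to 19, shared at least 1 bp with a CTCF peak of somatic SmcHD1 knockout cells and shared no base with a CTCF peak of wild-type cells. The sites were thus chosen by the CTCF lists themselves, and their number, rank and absence from wild type are descriptions of that choice. They made up 4535 of the 56129 autosomal CTCF peaks of the germline mutant, or 8.08% of them, out of 57798 peaks on all chromosomes.

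The binding data were ChIP-seq, in which sites bound by a protein are sequenced after immunoprecipitation. The authors worked with clonal lines of female mouse embryonic fibroblasts (MEFs) derived from an interspecific FVB by castaneus cross, whose autosomes are a mosaic of the strains. Wild type (wt) was the clone Wt2A1, and the germline mutant (mut) was the clone Mut5A6, which carries the MommeD1 null allele of SmcHD1. The somatic knockout (somKO) was made with CRISPR in another wild-type line, wt1A2, and had 2 clones. Neither deficient group shares its parental clone with wt, so that genotype and clone cannot be told apart. The lists analysed came from 24 of the 52 libraries of the series: for CTCF, 3 libraries of wt, 3 of mut and 4 of somKO, for the cohesin subunit Rad21, 2, 2 and 4 in the same order, and 3 SmcHD1 libraries in each of wt and mut. Each list was called by the authors on the merged reads of all libraries of its group. No value below therefore has a replicate error, no p-value is given, the read depth is unknown, and the 95% intervals in parentheses cover counting error only.

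CTCF binds an asymmetric motif with its array of zinc fingers, and at many sites cohesin, a ring that extrudes chromatin loops and whose subunits include Rad21, is halted by the bound protein. Binding is sensitive to DNA methylation at CpG positions of the motif and differs between cell types at weaker sites. SmcHD1 is a non-canonical SMC protein that is enriched on the inactive X chromosome and takes part in silencing there, at imprinted clusters and at clustered protocadherin genes.

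The sequences below are those of the 8 highest ranked new sites whose midpoint window held a match to the CTCF motif, outside untranslated exon parts. They are reference sequence of RefSeq assembly GRCm38.p6 (mm10), read 5′ to 3′ on the strand of the match, and capitals mark the 19 bases that scored best. The matrix behind the match was learned from strong CTCF peaks of these data and read NNGCCACNAGGGGGCGCNN where at least 50% of its instances shared a base, with N elsewhere.
Site near Gm5733, chr7:47740214-47740274, forward strand: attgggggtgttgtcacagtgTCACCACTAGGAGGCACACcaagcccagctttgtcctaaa
Site in Cntnap5c, chr17:57988584-57988644, forward strand: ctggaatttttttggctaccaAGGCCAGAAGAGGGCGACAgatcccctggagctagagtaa
Site near Gm21162, chr14:43520003-43520047, forward strand: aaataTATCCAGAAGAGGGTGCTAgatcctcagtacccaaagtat
Site near Gm15387, chr15:74180150-74180210, reverse strand: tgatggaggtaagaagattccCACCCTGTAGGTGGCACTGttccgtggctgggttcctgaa
Site in Elmod1, chr9:53934350-53934410, forward strand: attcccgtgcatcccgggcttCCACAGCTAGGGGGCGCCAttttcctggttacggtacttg
Site near 4932435O22Rik, chr11:114403156-114403216, reverse strand: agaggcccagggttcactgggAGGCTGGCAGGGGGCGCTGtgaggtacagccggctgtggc
Site near Gm48635, chr12:19650965-19651025, reverse strand: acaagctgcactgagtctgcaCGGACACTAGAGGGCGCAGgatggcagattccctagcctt
Site near BC048507, chr13:67876464-67876524, reverse strand: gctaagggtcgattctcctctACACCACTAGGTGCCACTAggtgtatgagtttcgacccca
The match of the site near Gm48635 held 2 CpG dinucleotides, those of the Cntnap5c, Elmod1 and 4932435O22Rik sites held 1 each, and the other 4 held none. Matches of the Cntnap5c, Gm21162 and BC048507 sites lay in sequence that the assembly soft-masks as repetitive.

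To place the number of sites, all autosomal CTCF peaks were sorted by the genotypes that listed them. Of the 56129 mut peaks, 9554 (17.0%) overlapped no wt peak, and 4535 of these were also listed in somKO whereas 5019 were listed in mut alone. A further 45630 mut peaks were listed in wt and somKO as well, and they are called kept peaks below. In the somKO list, 15073 of 67258 autosomal peaks (22.4%) overlapped no wt peak. When overlapping peaks of the lists were merged, 4119 of 74991 regions, or 5.49%, held peaks of mut and somKO without wt, compared with 7103 regions with wt and somKO peaks, 794 with wt and mut peaks, 3462 with a wt peak alone, 5019 with a mut peak alone and 10662 with a somKO peak alone. The wt list held 58231 autosomal peaks, so that it was longer than the mut list and shorter than the somKO list.

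The new sites stood low in the mut and somKO lists. Peaks were ranked by their deposited score and expressed as percentiles, where 100 is the highest score of the list. The median new site lay at percentile 18.2 of the mut list (17.87 to 19.14) and at 23.7 of the somKO list, whereas the median kept peak lay at 59.0 in mut and the median peak found in mut alone at 11.3. Mut scores of the new sites ran from 13, the lowest value of the list, through a median of 152 to 9849. Somatic knockout scores ran from 13 through 161 to 57485. Of the 4535 sites, 175 (3.86%) reached percentile 50 of the mut list, 501 (11.05%) that of the somKO list and 51 that of both. A total of 3748 sites (82.6%) had a score of at least 50 in both lists, and 586 (12.9%) were under 50 in mut. The peaks were also narrow, with a median width of 263 bp against 564 bp for kept peaks.

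**Figure D1:**
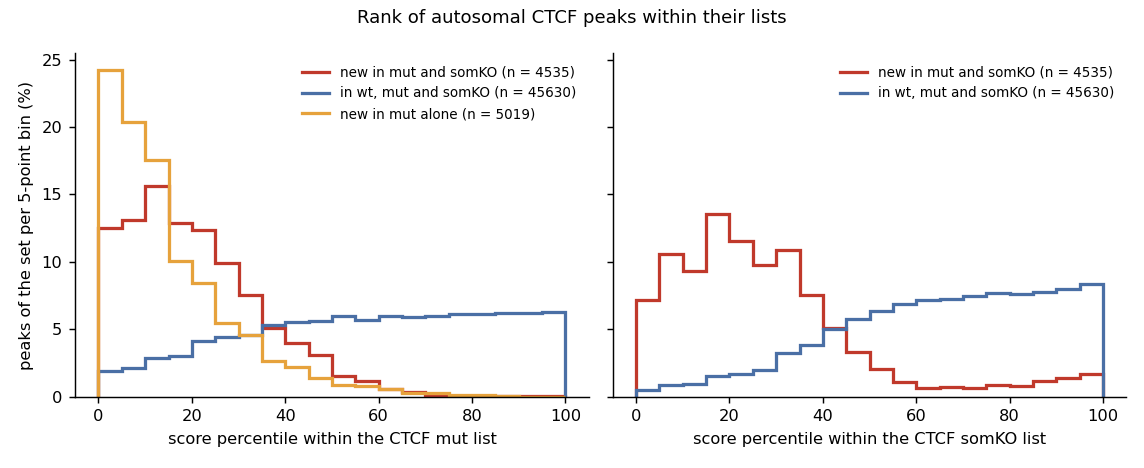
Distribution of autosomal CTCF peaks over score percentiles of the mut list (left) and the somKO list (right), in bins of 5 points, as a percentage of each set. New sites crowd below percentile 50 in both lists, with medians of 18.2 and 23.7, and the somKO panel shows a second, small rise near its upper end, where 267 sites lie at or above percentile 75.

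The sites differed in how their somKO peak met the wt list. For 407 sites (8.97%), every overlapping somKO peak also overlapped a wt peak, so that the somKO peak covered a mut site and a neighbouring wt site at the same time. These 407 sites had a median percentile of 3.27 in mut and 82.9 in somKO and lay a median of 0.239 kb from the nearest wt peak. They supplied 262 of the 267 sites at or above percentile 75 in somKO and none of the 51 that reached percentile 50 in both lists. The other 4128 sites had a somKO partner that was itself absent from wt, with median percentiles of 19.7 and 22.4. Spearman's rho between the mut and somKO percentiles was 0.262 over all 4535 sites and 0.533 over these 4128, against 0.824 over all 45630 kept peaks. Under mut percentile 50 it was 0.516 over 3953 of the 4128 and 0.378 over 18019 kept peaks. That cut leaves out most kept peaks but few new sites, so it narrows their ranges unequally. All these values are descriptions over peaks that share libraries, and the percentiles come from lists that the rule used.

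The new sites lay at varied distances from wt peaks. The median distance to the nearest wt CTCF peak was 5.86 kb, 1753 of the 4535 sites had none within 10 kb, and 1019 (22.5%) had one within 1 kb. At least 50% of the bases of both peaks were shared with a somKO peak at 3672 sites (81.0%). At the edge of the rule, sites at chr5:32611488-32611793 and chr8:46740792-46740990 touched a wt peak without sharing a base and were taken, with mut scores of 49 and 54. A peak at chr15:79805946-79806403, with a mut score of 45, shared 1 bp with a wt peak and was not taken. The smallest shared stretch with somKO was 1 bp, at chr10:53796633-53796903.

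Sites were ordered by the lower of their mut and somKO percentiles, and the first of them lay in an intron of the long noncoding RNA gene Gm36264, at chr13:9011731-9012165. It scored 9849 in mut, at percentile 98.4, and 4549 in somKO, at percentile 90.7, and no wt peak lay within 4.20 kb. No Rad21 peak overlapped it in wt, mut or somKO, its 300 bp window held no motif match, and 85.0% of that window was soft-masked. It was the only site at or above percentile 75 in both lists. Next in rank, a site 13.79 kb from the small nucleolar RNA gene Gm25261, at chr4:131252774-131253621, scored 2522 in mut and 2272 in somKO, at percentiles 74.5 and 76.8. Rad21 peaks covered it in mut and somKO and none did in wt.

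Other sites of the 20 highest ranked lay in or near protein-coding genes, noncoding RNA genes and pseudogenes. In an intron of Cntnap5c, which encodes a neuronal surface protein of the contactin-associated family, the site at chr17:57988309-57988869 scored 2072 in mut and 1253 in somKO. A site 1.69 kb from Sdk2, an adhesion molecule of retinal synapses, scored 1355 in mut and 1278 in somKO. Cadm1, an adhesion molecule of the immunoglobulin superfamily, held an intronic site with scores of 1145 in mut and 1155 in somKO. These 3 sites had Rad21 in mut and somKO and not in wt. The intronic site of Elmod1, a regulator of small GTPases, scored 2029 in mut and 909 in somKO, with Rad21 in mut alone. A site 6.13 kb from Pramel5, of the multicopy PRAME family, scored 1715 in mut and 1241 in somKO with Rad21 in both. On the same Mb of chromosome 4, a site in an intron of 1700012P22Rik scored 1013 in mut and 819 in somKO and had no Rad21.

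Rad21 patterns varied among the other sites of the 20. Sites near Gm5733 and Gm21162 had Rad21 peaks in all genotypes, with mut scores of 1920 and 1769 and somKO scores of 1699 and 1106. The sites near Gm5161 (1268 in mut, 1119 in somKO) and Gm15387 (1381 and 955) and the intronic site of Gm14618 (1069 and 1440) had Rad21 in mut and somKO alone. So did the site near BC048507, which scored 4678 in mut, at percentile 88.2, and 786 in somKO, at 56.6, and whose 300 bp window was soft-masked over 100% of its length. Intronic sites of Mtus2, a microtubule-associated protein (1094 in mut, 762 in somKO), and Ppfibp2, a liprin (1289 and 732), shared this pattern. The site near 4932435O22Rik (1031 and 2049) had Rad21 in somKO alone, and the site near Gm48635 (1006 and 1168) had none. Of the 20, 12 had Rad21 in mut and somKO without wt, 3 in all genotypes, 1 in mut alone, 1 in somKO alone and 3 in none.

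By the position of the peak's midpoint, new sites were found at promoters more often than kept peaks. A promoter was taken as 1000 bp on either side of an annotated transcription start. Promoters held 1113 of the 4535 sites, or 24.5% (23.3 to 25.8), introns 39.5%, exons 4.12% and intergenic sequence 31.8%. Among kept peaks the promoter share was 18.4%, and among peaks found in mut alone it was 32.8%. Since promoters vary with rank, the shares were also compared in bands of mut percentile. From percentile 0 to 20, promoters held 26.02% of new sites and 18.8% of kept peaks, and from 40 to 60 they held 24.9% and 16.3%. The new sites lay between the other sets in the lowest band, where peaks found in mut alone had 34.3%. This share depends on list length. With the lists cut to the same number of highest scoring peaks, 3122 sites were left and 18.2% of them were at promoters. The other sets were not compared at that list length.

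Promoter sites differed from the rest in sequence and in cohesin, and so did promoter peaks of the other sets. A motif match was found at 31.2% of the 1113 promoter sites, compared with 65.1% of 1793 intronic and 61.4% of 1442 intergenic sites. Rad21 peaks overlapped 63.5% of promoter sites in wt, where CTCF was not listed, but 20.3% of intronic and 20.5% of intergenic sites. In all genotypes at once, Rad21 was listed at 60.5% of promoter sites, 13.9% of intronic and 13.9% of intergenic sites. The windows at promoters held a median of 19 CpG dinucleotides, against 3 in introns. Among low ranked promoter peaks that were kept, from percentile 0 to 20, 34.4% (31.3 to 37.7) had a match and 64.0% had Rad21 in wt, compared with 25.04% (21.8 to 28.5) and 67.1% of the new promoter sites of that band. From 20 to 40, Rad21 in wt was at 70.0% of kept and 60.6% of new promoter peaks. Kept intronic peaks from percentile 0 to 20 had a match at 64.4% and Rad21 in wt at 36.3%, against 63.4% and 18.8% of new intronic sites. Among peaks found in mut alone, of all ranks, a match was at 23.8% of promoter and 49.1% of intronic peaks. Rad21 in wt was at 53.8% and 15.4% of them.

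**Figure D2:**
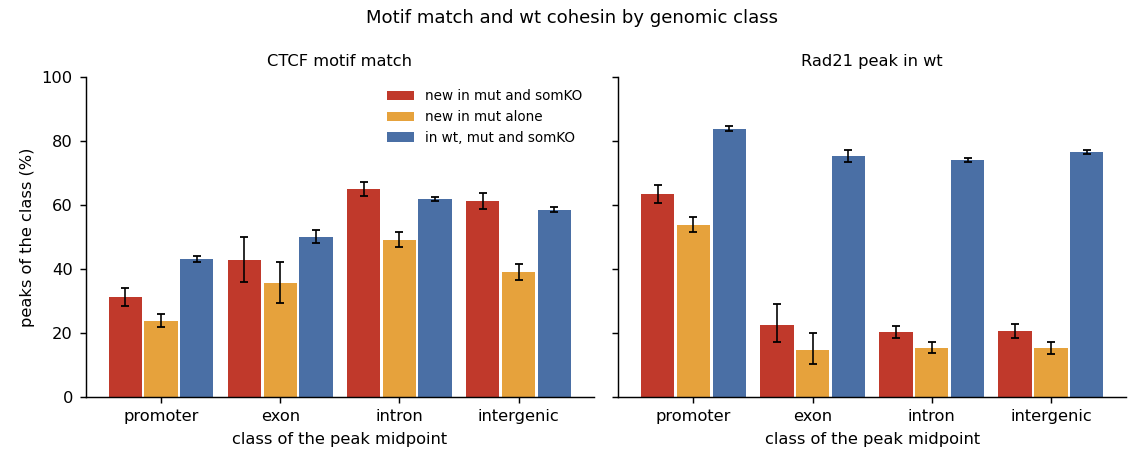
Share of autosomal CTCF peaks with a CTCF motif match (left) and with a Rad21 peak in wt (right), by class of the peak midpoint, with 95% Wilson intervals as error bars. At new sites the match falls to 31.2% in promoters from 65.1% in introns while wt Rad21 runs the other way, at 63.5% and 20.3%. Kept peaks, which include many of higher rank, have wt Rad21 at over 70% in every class. From percentile 0 to 20, not drawn separately, wt Rad21 is at 36.3% of kept and 18.8% of new intronic peaks.

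The 10 highest ranked promoter sites belonged to protein-coding genes of varied function. At the promoter of Crebbp, which encodes a histone acetyltransferase, the site at chr16:4213299-4213504 scored 1043 in mut and 932 in somKO, with Rad21 in wt, mut and somKO. The site of Dpp6, an auxiliary subunit of potassium channels, scored 1178 in mut and 742 in somKO, with Rad21 in mut and somKO and no wt CTCF peak within 170.08 kb. Sites of Dcaf15, a substrate receptor of a ubiquitin ligase (882 in mut, 595 in somKO), and of Dlgap4, a scaffold protein (659 and 605), lay 0.29 and 0.72 kb from a wt CTCF peak and had Rad21 in all genotypes. Rad21 was also in all genotypes at Dnajc14, a chaperone of the Hsp40 class (787 and 456), at the shared promoter of Nelfe, a subunit of the negative elongation factor, and Skiv2l, an RNA helicase (581 and 409), at the zinc finger gene Zfp68 (495 and 515) and at Ado, a thiol dioxygenase (512 and 391). Of these, the Zfp68 and Ado sites likewise lay close to a wt CTCF peak, at 0.6 and 0.47 kb. The site of B3gnt7, a glycosyltransferase (843 and 544), and that of Pcdhga6 (763 and 791) had Rad21 in mut and somKO and not in wt. Of these 10 sites, 7 thus had Rad21 in wt, and 2, those of Dcaf15 and Zfp68, held a motif match.

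Cohesin at the new sites was compared across genotypes, since Rad21 took no part in choosing them. Rad21 peaks overlapped 1408 sites in wt, or 31.0% (29.7 to 32.4), 1799 in mut, or 39.7% (38.3 to 41.1), and 2429 in somKO, or 53.6% (52.1 to 55.0). The same shares at kept peaks were 76.8%, 74.4% and 87.2%, and at peaks found in mut alone 27.9%, 46.7% and 39.2%. The lists differ in length, with 65769 autosomal Rad21 peaks for wt, 64520 for mut and 87288 for somKO. With the Rad21 and CTCF lists each cut to the same length the shares were 27%, 34.9% and 47.9%, in the same order, and the wt share stayed the lowest. No test of these differences is possible with 1 list per genotype.

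Sorted by pattern, 1878 sites (41.4%) had no Rad21 peak in any genotype and 1156 (25.5%) had one in each. Rad21 in somKO alone was found at 622 sites (13.7%), in wt and somKO at 205 (4.52%), in mut alone at 181 (3.99%), in wt alone at 31 and in wt and mut at 16. Rad21 in mut and somKO and not in wt, which is the pattern of CTCF itself, was found at 446 sites, or 9.83% (9.002 to 10.7). Over all 56129 autosomal mut CTCF peaks that pattern was found at 2843, or 5.07%, at 4.35% of kept peaks and at 7.09% of peaks found in mut alone. At kept peaks a Rad21 peak in wt is common and leaves less room for the pattern, so that the sets differ in what they could show.

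The pattern became more frequent with rank at the new sites, and by more than in the other sets. From percentile 0 to 20 of the mut list it was found at 157 of 2456 new sites, or 6.39% (5.49 to 7.43), from 20 to 40 at 164 of 1584, or 10.4% (8.95 to 12.0), from 40 to 60 at 104 of 442, or 23.5% (19.8 to 27.7), and from 60 to 80 at 18 of 48, or 37.5% (25.2 to 51.6). Kept peaks gave 5.08% (4.48 to 5.76), 5.67%, 6.61% (6.15 to 7.10) and 4.11% in these bands, with Rad21 in wt at 91.3% of them in the last, and peaks found in mut alone 6.76%, 8.40%, 7.63% and 3.03%. Peaks found in mut alone lack a somKO CTCF peak by definition, and Rad21 in somKO was scarce at those of higher rank. They too thus had less room for the pattern, and the differences between sets were not tested. Of the 51 sites at or above percentile 50 in both CTCF lists, Rad21 was listed in mut and somKO without wt at 24, in all genotypes at 11, in somKO alone at 7, in mut alone at 2 and nowhere at 7.

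**Figure D3:**
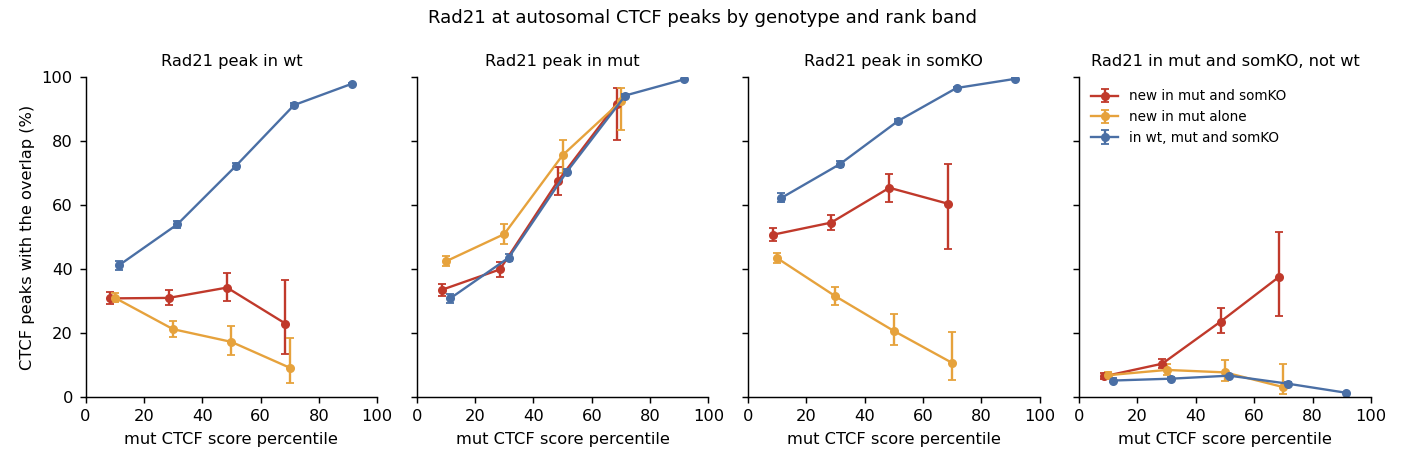
Share of CTCF peaks with a Rad21 peak in wt, mut and somKO and in mut and somKO without wt, by band of mut CTCF score percentile, for new sites, peaks new in mut alone and kept peaks, with 95% Wilson intervals as error bars and bands of under 20 peaks left out. In mut the sets climb together with rank, whereas in wt the new sites stay between 22.9% and 34.2% while kept peaks climb from 41.2% to 98.0%.

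In mut, Rad21 followed CTCF rank alike in the sets, from 33.4% to 91.7% at new sites and from 30.8% to 94.2% at kept peaks between the lowest band and the band from 60 to 80. In wt, where no listed CTCF peak overlaps the new sites, the share was 30.8% in the lowest band and 22.9% (n = 48) in that from 60 to 80. At peaks found in mut alone the somKO share fell from 43.4% to 10.6% over the same bands, whereas at the new sites it was 50.7% and 60.4%. A Rad21 peak in wt was most frequent at promoters, which held 707 of the 1408 new sites with wt Rad21. The wt share also varied with distance to wt CTCF peaks. It was 38.4% (391 sites) with a wt CTCF peak within 1 kb and 26.5% with none within 10 kb. Whether a wt Rad21 peak at a new site also covered a listed wt CTCF peak was not examined. With Rad21 counted only if its midpoint lay within 500 bp of the CTCF midpoint, the shares were 25.7% in wt, 32.6% in mut and 41.9% in somKO.

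The 5 highest ranked sites with Rad21 in mut and somKO and none in wt were those near Gm25261, in Cntnap5c and near Pramel5, Sdk2 and Gm5161. Their Rad21 peaks were of middle to high rank, at percentiles 78.9, 75.2, 75, 71.3 and 51.4 of the mut Rad21 list and at 82.8, 72.9, 77.2, 82.1 and 48.0 of the somKO Rad21 list. All 5 lay outside promoters, and only the Cntnap5c site held a motif match in its window.

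The share of new sites with a motif match stood above that of peaks found in mut alone, and its place beside kept peaks depended on the window. The 300 bp around the midpoint held a match at 2479 of 4535 sites, or 54.7% (53.2 to 56.1), compared with 56.6% of kept peaks and 37.4% of peaks found in mut alone. By construction 5.00% of windows 2000 bp away from kept peaks held one, and 4.54% of those beside new sites did. The score column marks no summit and strong peaks are wide, so that rank bands give the closer comparison: from percentile 0 to 20 a match was found at 50.0% of new sites, 55.6% of kept peaks and 35.4% of peaks found in mut alone, and from 20 to 40 at 62.7%, 72.1% and 44.1%. In those bands the new sites were thus below kept peaks. At the stricter threshold, which 1% of windows beside kept peaks reach, 17.0% of new sites (15.9 to 18.1) and 26.6% of kept peaks (26.2 to 26.98) held a match. In a 100 bp window the order was reversed, at 52.9% and 37.9%, over all ranks and without a comparison by rank band. Sites whose somKO partner also covered a wt peak rarely held a match, at 65 of 407, compared with 58.5% of the other 4128. A median of 23 bp separated the match from the midpoint of the new sites, and 40.5% of their matches contained a CpG, against 38.3% at kept peaks.

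Repeats contributed many of the matches, as they did at other weak peaks. Of the 2479 matches at new sites, 59.2% (57.3 to 61.1) lay mostly in soft-masked sequence, compared with 43.0% at kept peaks. Within the lowest rank band the shares were 68.8% at new sites and 72.8% at kept peaks, and from 20 to 40 they were 55.5% and 63.9%. At matched rank masked matches were thus not more frequent at the new sites than at kept peaks. They were more frequent than at peaks found in mut alone, which had 60.3% and 44.5% in these bands. More than 50% of the window was masked at 31.0% of the new sites, and at 19.07% of the windows beside them.

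Distances from the new sites to SmcHD1 were close to those of kept peaks. Distances were measured to the 5154 autosomal SmcHD1 peaks of wt cells, because the mut list, made from cells without the protein, held only 241 on autosomes. The median gap was 333 kb (315 to 358) at new sites, 350 kb at kept peaks and 399 kb at peaks found in mut alone. A SmcHD1 wt peak lay within 10 kb of 353 new sites, or 7.78% (7.04 to 8.60), against 6.47% of kept peaks, and within 100 kb of 25.6% against 24.7%. Within the lowest rank band, the shares within 10 kb were 9.08% at new sites and 8.96% at kept peaks, from percentile 20 to 40 they were 5.56% and 5.46%, and from 40 to 60 they were 8.14% (5.94 to 11.1) and 5.55% (5.13 to 6.01). Chromosome 5 carried 1671 of the SmcHD1 peaks, or 32.4%, and 118 of the 353 sites. Without it, 5.69% (5.02 to 6.44) of new sites and 4.92% (4.72 to 5.13) of kept peaks were within 10 kb. A peak of the SmcHD1 mut list lay within 10 kb of 0.639% of the new sites.

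**Figure D4:**
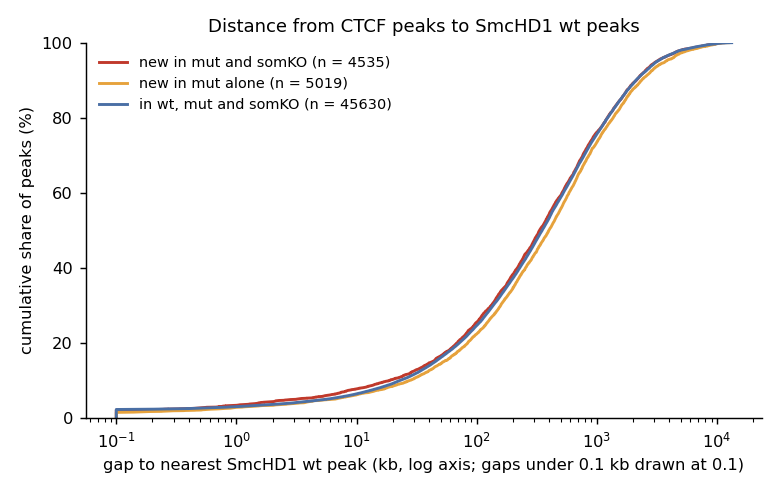
Cumulative share of autosomal CTCF peaks by the gap to the nearest SmcHD1 wt peak, in kb on a log axis, for new sites, peaks new in mut alone and kept peaks. Curves of new sites and kept peaks run close together, with medians of 333 and 350 kb, and the curve of peaks new in mut alone runs slightly below, with a median of 399 kb.

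Direct overlap with a SmcHD1 wt peak was found at 90 new sites, or 1.98% (1.62 to 2.43), compared with 2.24% of kept peaks. Of the 90, 29 were on chromosome 5 and 18 on chromosome 6, 51 were at promoters, 22 held a motif match and 4 also overlapped a peak of the SmcHD1 mut list. Rad21 was listed at 53 of them in wt, 62 in mut and 64 in somKO. The highest ranked was the intronic site of Mtus2 at chr5:148130985-148131297. It was followed by a site near Gm7902 at chr5:133815279-133815842, with scores of 716 in mut and 2049 in somKO and Rad21 in somKO alone. An intronic site of Fry, a large scaffold protein of cell polarity, scored 570 in mut and 502 in somKO, also with Rad21 in somKO alone. The promoter sites of Bcl11a, a zinc finger repressor known from globin switching (671 and 355), and of Nkx6-1, a homeobox factor of motor neurons and beta cells (5236 and 302), had Rad21 in mut and somKO. The Nkx6-1 site was uneven, at percentile 90.4 in mut and 37.9 in somKO.

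New sites were spread over all autosomes. The share of mut CTCF peaks that were new sites ranged from 6.02% on chromosome 16 to 10.3% on chromosome 10, with a mean of 8.03% ± 1.26 (SD over 19 chromosomes). Chromosomes 8 and 12 followed chromosome 10, at 9.93% and 9.65%. The total share of peaks absent from wt varied more, from 10.95% on chromosome 19 to 25.1% on chromosome 10. Accordingly the portion of mut peaks absent from wt that was also listed in somKO ran from 33.9% on chromosome 15 to 71.7% on chromosome 18. The paper normalised its RNA and Hi-C data for differences in chromosome copy number and describes the somKO clones as triploid. No adjustment for copy number was made here, and its bearing on shares by chromosome or window was not tested.

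**Figure D5:**
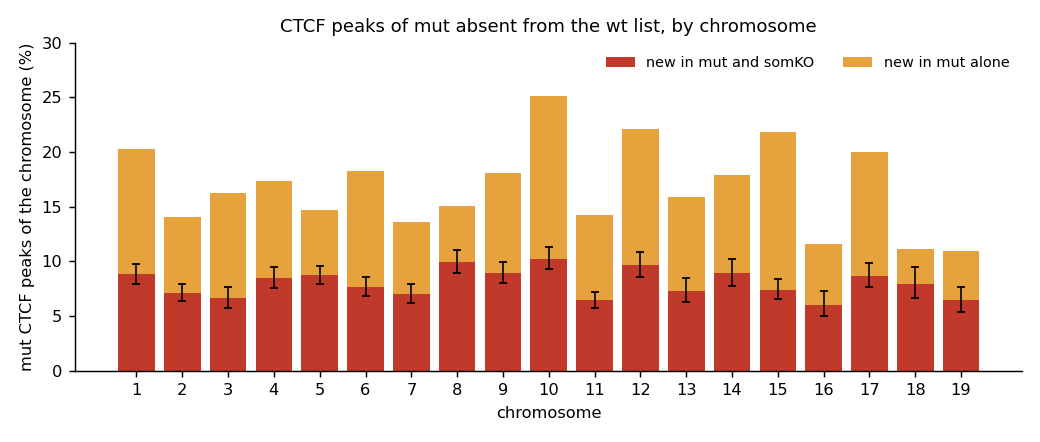
Share of the mut CTCF peaks of each autosome that overlap no wt peak, split into those also listed in somKO (lower part, with 95% Wilson intervals) and those new in mut alone (upper part). The lower part stays between 6.02% and 10.3%, while the whole bar runs from 10.95% to 25.1%.

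Neighbouring sites were a median of 208 kb apart, 226 of 4516 such gaps were at most 10 kb, and 1564 of 2362 windows of 1 Mb with a mut CTCF peak held a new site. The fullest window, on chromosome 10 from 127000001 to 128000000, held 20 new sites among 111 mut peaks, where wt had 82 peaks and somKO listed 101. Its sites lay in or near genes including Lrp1, a lipoprotein receptor, Gli1, a transcription factor of Hedgehog signalling, Avil, Nab2 and Stac3, and 7 of the 20 had Rad21 in mut. It also held 19 peaks found in mut alone. On chromosome 5 from 150000001 to 151000000, 15 new sites among 63 mut peaks lay in or near Fry, Rxfp2 and Brca2, and a single further peak was found in mut alone. Chromosome 6 from 114000001 to 115000000 also held 15, among 66 mut peaks, at genes including Atg7 of autophagy, the histamine receptor gene Hrh1 and Vgll4. The window on chromosome 12 from 112000001 held 14 among 80 mut peaks, at genes including the kinase gene Akt1 and Tdrd9. The windows on chromosome 15 from 99000001 and on chromosome 5 from 121000001 held 13 each, among 127 and 69 mut peaks. The chromosome 5 window held them at genes including Atxn2, Aldh2 and Cux2. New sites were 10.2% of mut peaks in the chromosome 15 window, near the 8.08% over all autosomes. In the other named windows they were 17.5% to 23.8%.

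Gene lists give these sites a context, beside 3166 of 20807 autosomal protein-coding genes (15.2%) that had a new site in the gene or within 5000 bp. Gene length and crowding differ between lists and no enrichment was tested. Of the 57 clustered protocadherin genes, which encode neuronal surface proteins chosen by promoter in single cells and are known for control by CTCF and SmcHD1, 21 had a new site. Their 11 sites are shared by several genes, because the long transcripts of the cluster overlap, with a median gene length of 86.1 kb. No site of the 11 had Rad21 in wt, whereas 3 had it in mut and 4 in somKO. The gaps from these 11 sites to the nearest SmcHD1 wt peak ran from 75.98 to 488.41 kb.

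Within the protocadherins, the site with the highest mut score lay at promoters of the alpha cluster, at chr18:36959951-36961330, within genes from Pcdha1 to Pcdha5. It scored 3831 in mut, at percentile 83.9, and 285 in somKO, at 36.8, and had Rad21 in mut and somKO and not in wt. The site with the highest lower percentile of both lists, at the Pcdhga6 promoter at chr18:37706809-37707208, scored 763 in mut and 791 in somKO, at percentiles 51.5 and 56.7, with the same Rad21 pattern. Another site, at chr18:37689604-37689944 in the gamma cluster, scored 1107 in mut and 190 in somKO, with Rad21 in mut alone. In 4 sites the somKO peak also covered a wt CTCF peak, so that its score is not that of the new site alone: a site at Pcdhb6 scored 35 in mut and 3635 in somKO, one at Pcdhb14 scored 26 and 1699, and a pair of alpha sites at chr18:36969088-36969478 and chr18:36969882-36970105 scored 51 and 41 in mut and 2441 in somKO. Sites at Pcdhb4 (95 in mut, 94 in somKO), in and beside Pcdhb8 (115 and 154, 21 and 50) and at the start of the alpha cluster in Pcdha1 (69 and 45) were low in both lists.

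Imprinted genes, which are expressed from a single parental allele, had new sites at 9 of 53. The highest ranked lay at the Peg3 promoter, at chr7:6730055-6730481, 0.31 kb from its neighbour Usp29. It scored 1430 in mut, at percentile 63.3, and 389 in somKO, at 43.0, with Rad21 in all genotypes. An intronic site of Snrpn, a splicing factor gene of the Prader-Willi region, scored 495 in mut and 175 in somKO and had no Rad21. In Igf2r, the receptor that clears insulin-like growth factor 2, one site scored 192 and 168 with Rad21 in all genotypes and another, which is 2.58 kb from the noncoding RNA gene Airn, scored 95 and 66 with Rad21 in mut and somKO only. Further sites lay in Rian (298 and 161), Herc3 (243 and 154), the second site of Usp29 (223 and 252), at the promoter and in an intron of Sgce (228 and 161, 195 and 194) and at Ascl2 (57 and 72). Over the 10 imprinted sites, Rad21 was listed at 3 in wt, 4 in mut and 5 in somKO. Their gaps to the nearest SmcHD1 wt peak ran from 0.1 kb at Peg3 to 683.2 kb at Ascl2.

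Hox genes, the homeobox genes of body patterning, had new sites at 7 of 39, through 5 sites, some of which lie by several genes. The highest ranked lay 4.93 kb from Hoxc12, at chr15:102943325-102943745, with scores of 706 in mut and 236 in somKO and Rad21 in mut and somKO only. Others lay at promoters near Hoxa3 and Hoxa4 (353 and 213), Hoxa13 (75 and 71), Hoxa7 (76 and 36) and Hoxa2 (33 and 50), all of them with Rad21 in each genotype.

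Fibroblast matrix genes had new sites at 10 of 47. In Pdgfrb, a growth factor receptor of mesenchymal cells, the highest ranked site scored 527 in mut and 364 in somKO, at percentiles 44.5 and 41.7, with Rad21 in mut alone. Intronic sites of the collagen gene Col8a1 (373 and 302, 145 and 213) had Rad21 in wt and somKO, and the first of them in mut as well. The site of Lum, a small proteoglycan (459 and 269), and that of Col5a1 (89 and 120) had Rad21 in mut and somKO and not in wt. At Twist2 (993 and 120) Rad21 was in mut alone, whereas the Col4a1 promoter site (46 and 3869) met a somKO peak that also covered a wt CTCF peak. Sites of Col12a1 (282 and 125), Tbx15 (174 and 107), Col16a1 (160 and 120) and Col18a1 (203 and 66) completed the list.

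Growth response genes, which are induced by serum and stress, had new sites at 7 of 27, and 6 of the 7 sites had Rad21 in every genotype. The highest ranked lay 0.69 kb from Fos, at chr12:85477804-85478114, with scores of 410 in mut and 285 in somKO. Those of Mdm2 (361 and 175), Klf6 (269 and 162), Fosb (289 and 147), Dusp6 (174 and 60) and Fosl2 (66 and 30) shared its Rad21 pattern, and that of Fosl1 (112 and 121) had Rad21 in mut and somKO only.

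The list for cohesin and CTCF machinery, which also holds condensin subunits and enzymes of DNA methylation, had new sites at 9 of 35 genes. Of the 9, Stag1, Wapl and Pds5a belong to cohesin or its regulators, Ncaph2 and Ncapd2 to condensin, and Tet1, Tet3, Dnmt3a and Dnmt3b to DNA methylation. The highest ranked of 13 sites lay in an intron of Stag1, a cohesin subunit, with scores of 253 in mut and 244 in somKO and Rad21 in all genotypes, and a second Stag1 site scored 147 and 107 with none. Tet1, which oxidises methylated cytosine, held 3 sites, with scores of 242, 227 and 154 in mut and 252, 154 and 355 in somKO. Promoter sites lay at Tet3 (306 and 182), Ncapd2 (152 and 77) and Pds5a, where the site scored 160 in mut and the somKO peak, at percentile 99.2 with a score of 11342, also covered a wt CTCF peak. The cohesin release factor gene Wapl held intronic sites (200 and 126, 115 and 133) without Rad21, and sites of Ncaph2 (240 and 389), Dnmt3a (44 and 71) and Dnmt3b (30 and 31) were the remainder.

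Of 28 germline genes, 4 had new sites, with the highest ranked in Mael, a factor of piRNA silencing (982 and 190, Rad21 in all genotypes), and others in Mov10l1 (343 and 160), Tdrd9 (184 and 120, 95 and 147) and at the Tdrd5 promoter (54 and 4653, the somKO peak also covering a wt peak). Of 26 replication-dependent histone genes, 7 had new sites, all through 4 promoter sites without a motif match in the histone clusters of chromosome 13. The highest ranked, in Hist1h3c, scored 156 in mut and 126 in somKO, and all 4 had Rad21 in wt. The others lay at Hist1h1c (137 and 182), Hist1h1b (228 and 36) and Hist1h3b (133 and 34). As shares of the genes found, the lists gave 36.8% for protocadherins, 26.9% for histones, 25.9% for growth response and 25.7% for the cohesin, condensin and DNA methylation genes. Fibroblast matrix gave 21.3%, Hox 17.9%, imprinted 17.0% and germline genes 14.3%, beside the 15.2% of all protein-coding genes. A mut CTCF peak of any kind was at 64.3% of germline genes, 84.9% to 100% of the other lists and 72.5% of all protein-coding genes. Among genes with such a peak, the shares were 38.2% for protocadherins, 30.4% for histones, 29.03% for the cohesin list and 25.9% for growth response. Fibroblast matrix (22.7%), germline (22.2%), Hox (20%) and imprinted genes (20%) were then close to the 20.98% of all protein-coding genes.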

How the data were processed

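Libraries were made by the authors from clonal female MEFs, and per the study's methods reads were aligned with Bowtie2 to an mm10 genome with strain variants masked, narrow peaks being called by MACS2 at q under 0.05 on reads of both alleles. Per the labels, the alignments of all replicates of a group were merged first. The MACS2 version and the use of inputs are not given in the sources used here. Chromatin for Rad21 and SmcHD1 was fixed with EGS and formaldehyde, that for CTCF with formaldehyde alone. The 8 deposited lists hold a position and a whole-number score for each peak. The score, read as 10 times −log10 of q because each list starts at 13, was deposited by the authors without a stated unit and served here only for ranks and cut-offs within a list. The libraries for H3K27me3 and the inputs are not used here.

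Overlaps of at least 1 bp, gaps and percentiles (mid-ranks) were computed with Python 3.11.15, numpy 2.4.6, pandas 2.3.3 and scipy 1.17.1, shares with 95% Wilson intervals and medians with order-statistic intervals. Genes and classes came from GENCODE M21. Chromosome lengths of RefSeq GRCm38.p6 held every autosomal peak. The motif matrix of 19 bases was learned from 2000 kept wt peaks of highest score, seeded with CCACNAGGG on either strand (96 matches) and iterated 10 times, with 948 instances at the end. A match scored above 11.58 (log2), which 5% of windows 2000 bp from kept peaks reach, on the best of both strands. Overlap and motif steps were tested on simulated data. No statistical test was run, because each group has 1 merged list.

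Sites, gene lists and measures were chosen with earlier results of these data known. Named sites are the 20 with the highest lower percentile of the mut and somKO lists, the 10 such promoters, all in or within 5000 bp of listed genes, the 5 fullest windows with ties, the 5 highest ranked that overlap SmcHD1 and the 5 highest ranked with Rad21 in mut and somKO without wt. Alternatives covered overlap, distance to wt peaks, score, list length, chromosomes, annotation, promoter size, Rad21 midpoints, SmcHD1 score, motif threshold and window.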

Additional observations from a re-analysis of the deposited data

How the results depend on the processing

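No paired analysis was possible because each list merges all replicates of its group, and for the same reason no replicate could be left out. Of 89 values under other settings, 46 stayed within the interval of the reported value (or, for the number of sites, within 1.5 times) and 43 moved beyond it, without a test. Requiring 50% of both peaks to overlap, for absence from wt too, gave a median mut percentile of 30.1, Rad21 in wt, mut and somKO at 49.6%, 56.1% and 67.8% and an intergenic share of 33.3%; this setting takes in 6639 sites, since weakly overlapping wt peaks no longer count. Without a wt peak within 500 bp the median was 20.1 and the motif share 60.6%. With scores of at least 50 they were 21.4 and 61.6%, Rad21 in wt 29.6%, promoters 22.8%, introns 41.4% and SmcHD1 within 10 and 100 kb 6.59% and 24.1%. Lists of equal length gave 21.4, 58.7%, Rad21 at 27%, 34.9% and 47.9%, promoters 18.2%, introns 43.0% and intergenic 34.7%. Without chromosomes 3, 4 and 14 the median was 17.8 and SmcHD1 within 100 kb 27.3%. Protein-coding genes alone gave promoters, exons, introns and intergenic sites at 21.1%, 3.42%, 36.7% and 38.8%, and promoters of 2500 bp 36.3%, 2.62%, 32.5% and 28.7%. Rad21 midpoints within 500 bp gave 25.7%, 32.6% and 41.9%, and SmcHD1 peaks with scores of at least 50 lay within 10 and 100 kb of 3.84% and 14.2%. The motif share was 17.0% at the 1% threshold and 52.9% in 100 bp. Of 2 settings chosen after seeing the data, a somKO partner without a wt peak gave a median of 19.7 and a motif share of 58.5%, and leaving out chromosome 5 gave SmcHD1 shares of 5.69% and 21.5%. In every setting run, Rad21 was listed at fewer sites in wt than in mut and at fewer in mut than in somKO. Unknown depth limits every absence: a site missing from the wt list may be bound below the threshold.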
